A study of Mus musculus with 5 samples.

Results

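Keratin-associated proteins are the matrix of the hair shaft, and their genes (Krtap) were followed one by one in ear skin of mice without Cd1d and of control mice. The deposited count table was searched for Entrez identifiers whose mouse symbol starts with Krtap. This gave 55 genes of 26 numbered subfamilies among 27179 identifiers. CD1d presents lipid antigens to natural killer T cells, and the series compared the skin transcriptome of B6 mice with and without it. Total RNA of ear skin was sequenced in 2 libraries of Cd1d -/- mice (KO) and in 3 libraries of controls. The controls carry Cd1d +/- in their titles and WT in their genotype tag, so they are called controls. No age, sex or hair cycle stage is given in the labels, and nothing says that the libraries came from separate mice. All p-values thus reflect only how these 5 libraries vary, and that variation may be technical.

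Keratin-associated proteins surround the keratin filaments of the cortex and cuticle and are cross-linked to them through disulfide bonds between cysteines. Their genes are small, have a single exon, lie in clusters, and are transcribed in shaft cells of growing (anagen) follicles, mostly after the hair keratins. By composition the proteins fall into a high glycine-tyrosine class, a high sulfur class and an ultra-high sulfur class, the last with the most cysteine.

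Total counts were 54596686 and 45270805 in KO replicates 1 and 2, and 79160005, 73692964 and 32353957 in control replicates 1 to 3. A level of 3 counts, used as the floor, came to between 0.0356 CPM in control replicate 1 and 0.091 CPM in control replicate 3. CPM are counts scaled to library size by the TMM method, and such limits cover counting error only. Cd1d1 had 61 and 48 counts in the KO libraries and 557, 757 and 182 in the controls. Its log2 fold change was -2.67 (SE 0.29, edgeR quasi-likelihood test, adjusted p = 0.0152), so the targeted gene pointed the same way as the labels in all 5 libraries. For the Krtap genes a single library, KO replicate 1, stood apart from the other 4. Each result is therefore given per library, and group results are given with and without it.

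For each of the 55 genes, the GENCODE transcript with the longest coding sequence on GRCm38 was taken. In every case this coding sequence lies in a single exon. Gene positions are those of RefSeq on the same build. The chromosome 16 locus held 24 of them between positions 88610709 and 89571183. The chromosome 11 locus held 22 between 99550132 and 99993994. A further 5 genes, all of subfamily 5, lay on chromosome 7 (142174532 to 142304503), 3 on chromosome 10 (77720586 to 77837251) and 1, Krtap28-13, on chromosome 1. Classes were set here from the translated coding sequences. A share of glycine plus tyrosine of at least 35% made a gene high glycine-tyrosine (18 genes). Of the others, those with more than 30% cysteine were ultra-high sulfur (17 genes) and the rest were high sulfur (20 genes). Krtap28-13, Krtap5-2 and Krtap5-3 exceeded both limits, and Krtap7-1 with 29.9% glycine plus tyrosine fell to the high sulfur class. Cysteine ranged from 0% in Krtap19-9b to 42.8% in Krtap28-13.

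The first 150 coding bases of 4 genes show how different the classes are. All 4 lie on the minus strand of GRCm38. Krtap19-4, from chr16:88884917-88885066, is shown because it was the only gene of the family called between the groups; capitals mark its codons for glycine and tyrosine, 33 of 50. In the other 3 genes capitals mark the codons for cysteine, with 11 in Krtap3-2 (chr11:99556651-99556800), the most highly expressed member, and 18 in Krtap4-1 (chr11:99628033-99628182), an ultra-high sulfur gene. Krtap11-1 (chr16:89570980-89571129), with the largest fold change of the family, has 3.
Krtap19-4: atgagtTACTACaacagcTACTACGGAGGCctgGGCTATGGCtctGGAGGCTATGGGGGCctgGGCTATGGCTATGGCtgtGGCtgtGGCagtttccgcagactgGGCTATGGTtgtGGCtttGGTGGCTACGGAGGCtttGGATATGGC
Krtap3-2: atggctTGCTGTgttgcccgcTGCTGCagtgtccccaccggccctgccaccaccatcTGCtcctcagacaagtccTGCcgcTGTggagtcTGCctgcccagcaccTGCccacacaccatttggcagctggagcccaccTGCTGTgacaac
Krtap4-1: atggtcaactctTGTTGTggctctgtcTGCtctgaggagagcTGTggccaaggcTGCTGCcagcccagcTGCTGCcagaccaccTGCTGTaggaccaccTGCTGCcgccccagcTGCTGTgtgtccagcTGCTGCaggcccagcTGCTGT
Krtap11-1: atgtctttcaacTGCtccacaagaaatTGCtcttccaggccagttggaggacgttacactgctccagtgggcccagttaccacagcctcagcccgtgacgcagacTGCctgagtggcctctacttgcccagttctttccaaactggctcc

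The promoters of the family share a feature that the choice of genes did not use. RefSeq promoter sequences of GRCm38.p6 were matched for 50 of the 55 genes by gene identifier. TATAAA, a form of the TATA box, was present on the forward strand within 100 bases before the start in 40 of 50 (80%), against 1118 of 27025 (4.14%) of all promoters. In 30 of the 50 its first base lay 40 to 20 bases before the start. In 300 bases and on both strands it was present in 82% of these promoters, against 14.2% of all promoters. Other motifs were searched in the same 300 bases on both strands. CTTTGAT, a site of Lef1, was found in 8% against 3.72%. TTTTATNG, a form of the AT-rich site of Hoxc13 whose reverse complement can overlap TATAAA, was found in 6% against 4.37%, and CCAAT in 36% against 37.9%. On the forward strand of the 100 bases before the start, CTTTGAT was found in 2% against 0.633%, TTTTATNG in 0% against 0.588% and CCAAT in 2% against 10.5%. Such matches describe letters and do not show binding. The genes of a subfamily share descent, so their promoters are not independent of each other.

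The 100 bases before the start are shown for Krtap19-4, Krtap3-2 and Krtap11-1 and for Krtap3-1, a neighbour of Krtap3-2 with another expression pattern, with TATAAA in capitals (GRCm38.p6, minus strand). They come from chr16:88885090-88885189, chr11:99556854-99556953, chr11:99566631-99566730 and chr16:89571184-89571283 in the order printed. The Krtap19-4 sequence has no TATAAA.
Krtap19-4: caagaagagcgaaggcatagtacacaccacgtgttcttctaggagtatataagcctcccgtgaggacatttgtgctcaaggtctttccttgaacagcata
Krtap3-2: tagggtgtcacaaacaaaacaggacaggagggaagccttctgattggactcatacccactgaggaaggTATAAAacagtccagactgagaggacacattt
Krtap3-1: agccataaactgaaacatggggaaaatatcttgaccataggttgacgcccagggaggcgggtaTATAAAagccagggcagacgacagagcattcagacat
Krtap11-1: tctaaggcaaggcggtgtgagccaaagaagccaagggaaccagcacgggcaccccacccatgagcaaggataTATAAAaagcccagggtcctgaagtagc

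Summed over all 55 genes, the Krtap level was 403 and 75.2 CPM in KO replicates 1 and 2 and 62.4, 59.2 and 68.3 CPM in control replicates 1 to 3. KO replicate 1 was 5.35-fold above the highest other library, which was KO replicate 2. The group means were 239 ± 231 CPM in KO (SD, n = 2) and 63.3 ± 4.62 CPM in controls (SD, n = 3), so the difference between the means was smaller than the SD within KO. In whole skin, fewer cells of a type and less RNA per cell cannot be told apart, and this holds for every level given here.

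Of the 55 genes, 52 had their highest CPM in KO replicate 1. Of the 3 exceptions, Krtap13 and Krtap6-3 had 0 counts in every library, and Krtap20-2 had 2 counts in control replicate 2 alone. To compare this library with the rest, the 50 genes with at least 10 counts in some library were used, and the highest of the other 4 libraries was set to no less than its floor of 3 counts. KO replicate 1 was at least 4-fold above the highest other library for 44 of the 50, against 124 of 18355 genes (0.676%) in the whole table. A gene could reach 10 counts through KO replicate 1 alone, so this number supports nothing by itself. Among the 38 Krtap genes with at least 10 counts in one of the other 4 libraries, 35 were at least 4-fold above the highest other library in KO replicate 1, against 91 of 18240 genes (0.499%). That restriction was chosen after seeing the data. The median ratio of the 50 genes was 10.02. The ratio ran from 1.47 for Krtap3-2 to 29.6 for Krtap16-1, and the 6 genes under 4-fold were Krtap3-2, Krtap3-3, Krtap9-5, Krtap27-1, Krtap26-1 and Krtap5-1.

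**Figure D1:**
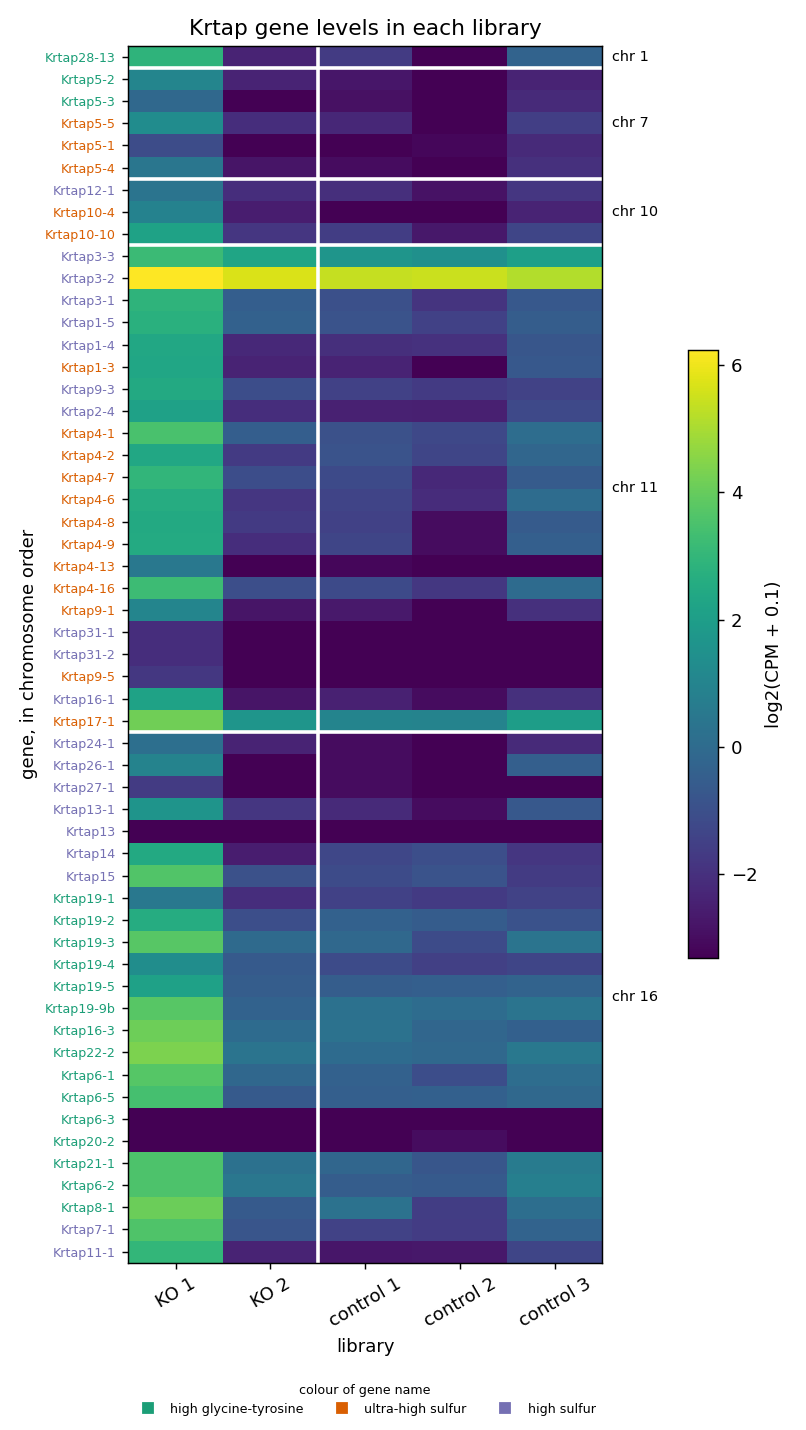
Level of each of the 55 Krtap genes (down, in chromosome order, gene name coloured by class) in the 2 KO and 3 control libraries (across), as log2(CPM + 0.1), where the darkest colour is 0 counts. The KO 1 column is the brightest for 52 genes, and Krtap3-2 is bright in all 5 columns.

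Over the same 50 genes, KO replicate 2 mostly lay among the controls. Control replicate 3 was the second-highest library for 35 of the 50 genes and KO replicate 2 for 8. The 8 include Krtap9-5, for which KO replicate 2 and the controls tied at 0 counts. KO replicate 2 lay inside the range of the 3 controls for 36 genes, above it for 7 and below it for 7. Genes with 0 counts in both KO replicate 2 and a control, such as Krtap9-5 and Krtap4-13, counted as inside. Some of the 50 genes reached 10 counts in KO replicate 1 alone. The share over all genes was not computed, so these counts support nothing by themselves. Genes with 0 counts numbered 3 and 11 in KO replicates 1 and 2, and 8, 17 and 8 in control replicates 1 to 3. Control replicate 2, one of the 2 deepest libraries, thus had the most genes at 0, among them 7 of the 17 ultra-high sulfur genes and 4 of the 5 genes on chromosome 7.

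The high glycine-tyrosine genes encode the small proteins thought to fill the space between filaments in the cortex. Their summed level was 152 and 9.87 CPM in KO replicates 1 and 2 and 9.97, 6.98 and 12.98 CPM in control replicates 1 to 3. All 16 of these genes with at least 10 counts were at least 4-fold above the highest other library in KO replicate 1, against 0.676% of all genes. Their median ratio was 10.7. Some reached 10 counts in KO replicate 1 alone, so this count and median support nothing by themselves. Krtap22-2 (chromosome 16, 89010380 to 89010759) had 1033 and 50 counts in the KO libraries and 77, 64 and 43 in the controls. Krtap16-3 belongs to a chromosome 16 gene complex studied in mice as a target of the homeobox protein Hoxc13. It had 877 and 39 counts in KO and 94, 60 and 22 in controls. Krtap8-1 had 856 and 24 counts in KO and 93, 18 and 33 in controls. In each of these 3 genes KO replicate 1 was far above the rest and KO replicate 2 lay within the range of the controls in CPM, so the groups overlapped.

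Within this class the genes of one subfamily were not equally high. In subfamily 19, 6 genes between Krtap19-1 and Krtap19-9b, the ratio of KO replicate 1 to the highest other library ran from 4.37 for Krtap19-4 to 11.4 for Krtap19-9b. Subfamily 6 had 3 detected genes with ratios of 7.09 for Krtap6-2 up to 13.3 for Krtap6-1, beside Krtap6-3 at 0. Krtap6-2 itself had 604 and 55 counts in KO and 51, 43 and 55 in controls, and its neighbour Krtap21-1 had 606 and 47 in KO and 67, 38 and 49 in controls. Krtap19-5 was lower, with 222 and 26 counts in KO and 51, 50 and 24 in controls. All 3 were high in KO replicate 1 only. Per kilobase of transcript, the level in KO replicate 1 was 55.4 CPM for Krtap22-2, 29.2 for both Krtap19-9b and Krtap8-1, 28.6 for Krtap16-3 and 25.5 for Krtap19-3. All of these are high glycine-tyrosine genes, and on this per-length scale only Krtap3-2 with 73.0 CPM was above them.

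Ultra-high sulfur genes encode the most cysteine-rich proteins of the shaft. Summed, they had 87.1 and 5.81 CPM in KO replicates 1 and 2 and 4.80, 2.999 and 10.9 CPM in control replicates 1 to 3. In KO replicate 1, 15 of 17 were at least 4-fold above the highest other library, against 0.676% of all genes. Their median ratio was 9.65. Here too some genes reached 10 counts in KO replicate 1 alone, so this count and median support nothing by themselves. Subfamily 4, the largest with 8 genes, had 51.9 and 2.15 CPM in KO and 2.41, 1.12 and 5.40 CPM in controls. Its gene with the highest mean CPM, Krtap4-1 (chromosome 11, 99627229 to 99628239), had 568 and 27 counts in KO and 35, 25 and 32 in controls. Only KO replicate 1 was high. Krtap4-13 of the same subfamily had 68 and 0 counts in KO and 1, 0 and 0 in controls, so its ratio of 14.6 was set against the floor.

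Subfamilies 5, 10 and 17 are known from the human hair cuticle, the outer scale layer of the shaft. The 5 genes of subfamily 5, of which Krtap5-2 and Krtap5-3 fell in the glycine-tyrosine class by the limits used, summed to 6.79 and 0.280 CPM in KO and 0.213, 0.0130 and 0.728 CPM in controls. In control replicate 2 this sum was a single count, from Krtap5-1. Krtap10-10 (chromosome 10, 77835947 to 77837251) had 228 and 8 counts in KO and 20, 4 and 10 in controls. It lies within the span of Tspear on the same strand. Krtap17-1 (chromosome 11, 99993232 to 99993994) had the highest level per length of the ultra-high sulfur genes in every library, with 17.9 and 3.08 CPM in KO and 1.87, 1.81 and 3.94 CPM in controls. Its ratio in KO replicate 1 was 4.54, and the KO replicate 2 level lay within the controls.

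**Figure D2:**
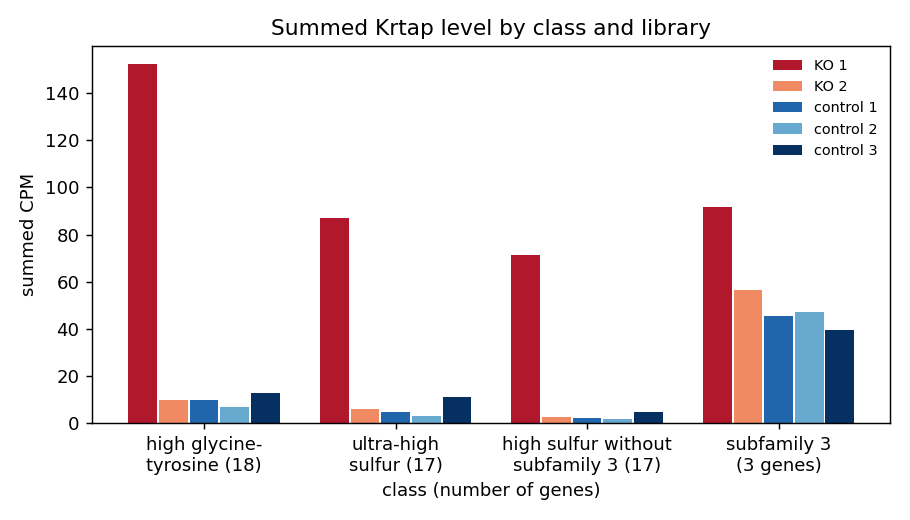
Summed CPM (vertical axis, from 0) of the genes of each class in each library, with 1 bar per library, KO bars left of control bars. The 3 genes of subfamily 3 are drawn apart from the other high sulfur genes. The KO 1 bar is the highest in all 4 sets, and in subfamily 3 the other 4 libraries also lie between 39.6 and 56.7 CPM.

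High sulfur genes divided into subfamily 3 and the rest. Without the 3 genes of subfamily 3, the summed level of the other 17 was 71.5 and 2.82 CPM in KO replicates 1 and 2 and 2.34, 1.90 and 4.73 CPM in control replicates 1 to 3. This set held the 3 highest ratios of the family, 29.6 for Krtap16-1, 27.9 for Krtap15 and 25.9 for Krtap11-1. Krtap15 had 631 and 18 counts in KO and 30, 34 and 7 in controls, and in GENCODE a longer transcript of it overlaps Krtap14 on the opposite strand. Krtap11-1 (chromosome 16, 89570176 to 89571183) had 402 and 4 counts in KO and 4, 4 and 10 in controls. Krtap16-1 had 229 and 2 counts in KO and 7, 2 and 5 in controls. For Krtap15, Krtap11-1 and Krtap16-1 KO replicate 1 alone was high, and KO replicate 2 was no higher than the highest control in CPM.

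Other high sulfur genes had the same shape at lower ratios. Krtap7-1, next to the glycine-tyrosine genes on chromosome 16, had 611 and 20 counts in KO and 23, 17 and 24 in controls. Krtap2-4 on chromosome 11 had 220 and 6 counts in KO and 7, 6 and 11 in controls. Krtap14 had 279 and 3 counts in KO and 26, 30 and 6 in controls, so KO replicate 2 was below every control in CPM. Krtap13-1 had 153 and 8 counts in KO and 10, 2 and 17 in controls.

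Outside subfamily 3, Krtap26-1 was the gene with at least 10 counts in control replicate 3 whose level there came closest to KO replicate 1. It had 95 and 0 counts in KO and 2, 0 and 21 in controls, a ratio of 2.92. Its neighbour Krtap27-1 had 11 and 0 counts in KO and 2, 0 and 0 in controls, and Krtap24-1 had 53 and 4 counts in KO and 2, 0 and 4 in controls. Krtap31-1 and Krtap31-2, whose coding sequences are 98.88% identical, each had 7 counts in KO replicate 1 and 0 in the other 4 libraries. With so few counts their ratio to the floor was at least 1.51.

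**Figure D3:**
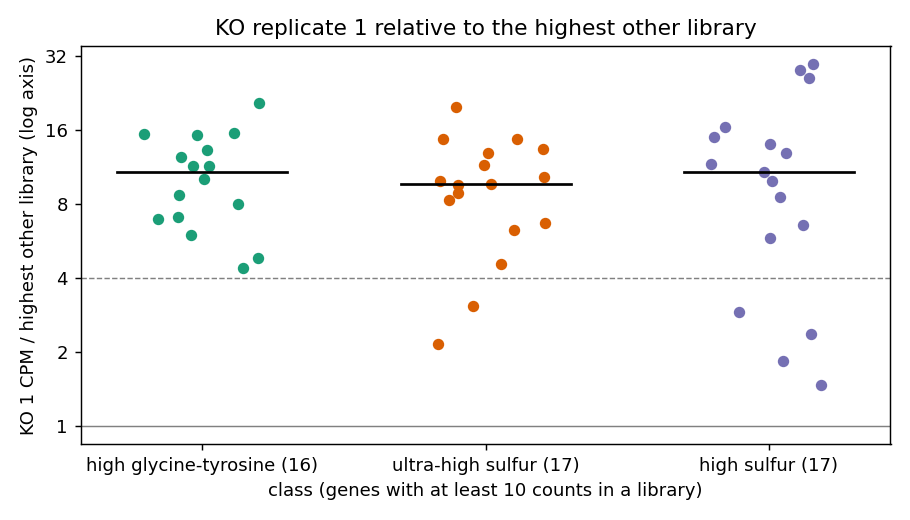
CPM in KO replicate 1 divided by the highest CPM among the other 4 libraries (log axis) for the 50 Krtap genes with at least 10 counts in a library, 1 point per gene, by class; black bars are class medians and the dashed line is 4-fold. The medians are 10.7 for high glycine-tyrosine, 9.65 for ultra-high sulfur and 10.7 for high sulfur genes, and 44 points are at or above the dashed line. Some genes reached 10 counts in KO replicate 1 alone, so the medians and this count support nothing by themselves.

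Subfamily 3 departed from this pattern through Krtap3-2 and Krtap3-3, which were well covered in every library. Its 3 genes are adjacent on chromosome 11 and summed to 91.6 and 56.7 CPM in KO replicates 1 and 2 and 45.3, 47.3 and 39.6 CPM in control replicates 1 to 3. Krtap3-2 (99555823 to 99556853) had 3846 and 2193 counts in KO and 3522, 3408 and 1155 in controls, or 75.3 and 51.2 CPM in KO and 41.8, 44.4 and 35.04 CPM in controls. Both KO libraries were above all 3 controls in CPM. This one gene made up 18.7% and 68.1% of the summed Krtap CPM in KO replicates 1 and 2 and 66.95%, 75.1% and 51.3% in control replicates 1 to 3. The log2 fold change of Krtap3-2 was 0.64 (SE 0.17) and it did not pass (edgeR, adjusted p = 0.0632). Krtap3-2 passed with DESeq2 (adjusted p = 0.00757), limma voom (0.00828), no count filter (edgeR, 0.0296), the replicate number as a block (edgeR, 0.0346), and without control replicate 2 (edgeR, 0.0323) or control replicate 3 (edgeR, 0.0417). Among the settings in which it did not pass were length and GC offsets (log2 fold change 0.38, edgeR adjusted p = 0.0749) and leaving out control replicate 1 (edgeR adjusted p = 0.220).

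Krtap3-3 (99550132 to 99550863) behaved like Krtap3-2, with 8.97 and 4.88 CPM in KO and 3.11, 2.66 and 4.06 CPM in controls. Its log2 fold change was 1.10 (SE 0.27, edgeR adjusted p = 0.0559), also short of the threshold. Krtap3-3 passed with DESeq2 (adjusted p = 0.00360), limma voom (0.00382), no count filter (edgeR, 0.0220), the block (edgeR, 0.00525), and without control replicate 3 (edgeR, 0.00910). Among the settings in which Krtap3-3 did not pass were length and GC offsets (log2 fold change 0.65, edgeR adjusted p = 0.152) and leaving out control replicate 1 (edgeR adjusted p = 0.222). Its log2 fold change was 0.59 without KO replicate 1 and 1.47 without KO replicate 2. The coding sequences of Krtap3-2 and Krtap3-3 are identical over all 300 bases. Of the 50-base words of Krtap3-3, 41.3% also occur in another gene. Reads may thus have been split between the genes, and each value is uncertain. Krtap3-1, the third gene, had 7.30 and 0.630 CPM in KO and 0.403, 0.170 and 0.516 CPM in controls. Unlike its neighbours it was 11.6-fold above the highest other library in KO replicate 1.

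The KO and control groups were compared with edgeR over 17472 genes. Of the 55 Krtap genes 39 passed the filter on low counts, and some of these had most of their counts in KO replicate 1, so their number and median support nothing by themselves. Of these 39, 1 was called higher and 0 lower, against 474 of all genes tested higher (2.71%) and 183 lower (1.05%), together 3.76%. The log2 fold changes of the 39 ran from 0.64 to 5.26 with a median of 3.36, against -0.02 over all genes tested. At an unadjusted p under 0.05 there were 10 Krtap genes and 3819 genes in all. DESeq2 called 7 of the 39 Krtap genes higher and 0 lower, against 1088 higher and 720 lower of 17472 genes. Both KO libraries lay above every control for 6 of the 39, against 19.9% of all genes tested. These were Krtap3-1, Krtap3-2, Krtap3-3, Krtap1-5, Krtap9-3 and Krtap19-4.

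The called gene, Krtap19-4 (Entrez 170654, chromosome 16, 88884786 to 88885089), encodes a high glycine-tyrosine protein and has a transcript of 304 bases, shorter than that of every other member. It had 125 and 24 counts in KO and 30, 19 and 10 in controls, which is 2.45 and 0.560 CPM in KO and 0.356, 0.248 and 0.303 CPM in controls. Both KO libraries were above all controls, KO replicate 1 by much more than KO replicate 2. Krtap19-4 rose with a log2 fold change of 2.31 (SE 0.55, edgeR adjusted p = 0.0478). It did not pass without KO replicate 1 (log2 fold change 0.88, edgeR adjusted p = 0.642), without control replicate 1 (edgeR adjusted p = 0.160), without control replicate 2 (edgeR adjusted p = 0.0642), with robust estimation off (0.0521) or with offsets for the length and GC content of transcripts (0.0797).

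Larger fold changes did not pass. Krtap11-1 had the largest, 5.26 (SE 2.10, edgeR adjusted p = 0.279). Krtap15 had 4.17 (SE 1.55, edgeR adjusted p = 0.255) and Krtap7-1 had 4.09 (SE 1.60, edgeR adjusted p = 0.272). Krtap9-3 and Krtap1-5, high sulfur genes in which both KO libraries exceeded the controls, did not pass either. Krtap9-3 had 5.56 and 0.373 CPM in KO and 0.261, 0.209 and 0.273 CPM in controls, with a log2 fold change of 3.60 (SE 1.09, edgeR adjusted p = 0.149). Krtap1-5 had 6.68 and 0.677 CPM in KO and 0.451, 0.261 and 0.607 CPM in controls, with a log2 fold change of 3.13 (SE 0.99, edgeR adjusted p = 0.164). In both genes the margin of KO replicate 2 over the highest control was small. Krtap12-1, a cuticle gene in humans and 1 of the 5 members with the smallest p, had 61 and 6 counts in KO and 12, 3 and 6 in controls. Its log2 fold change was 2.57 (SE 0.84, edgeR adjusted p = 0.108).

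**Figure D4:**
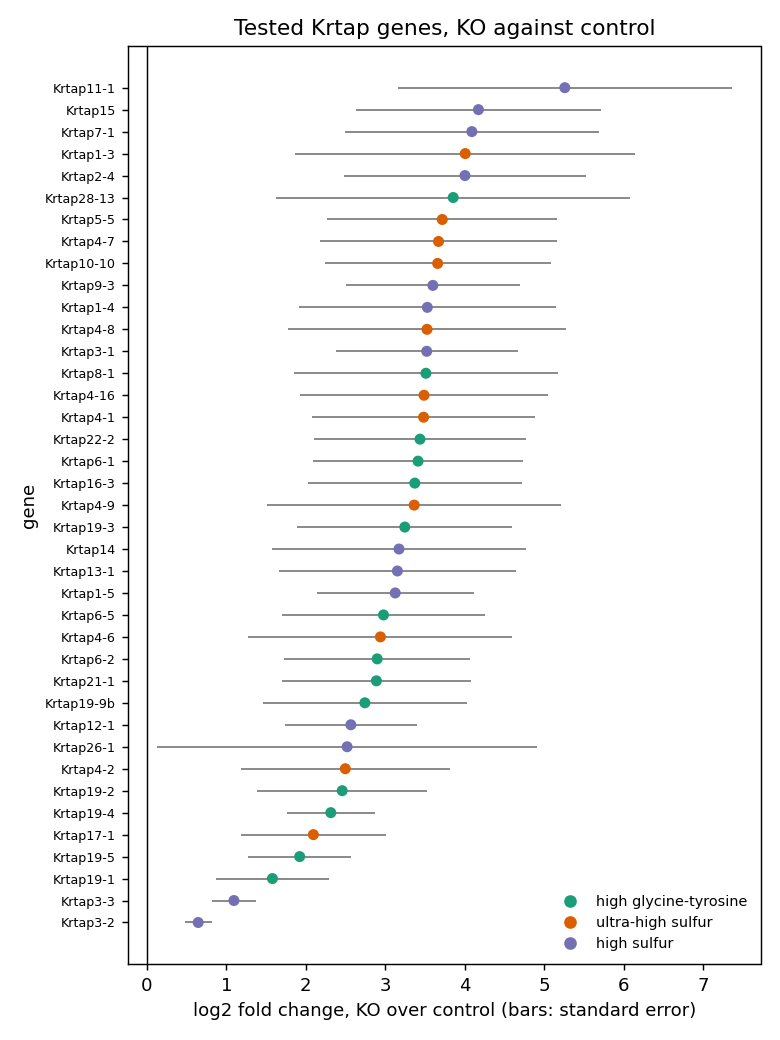
edgeR log2 fold change of KO over control (horizontal axis) with its standard error (bar) for the 39 Krtap genes that passed the count filter, sorted by value and coloured by class. All lie right of 0, between 0.64 and 5.26, and the bars are shortest for Krtap3-2 and Krtap3-3.

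Each KO library was then set against the 3 controls on its own. In these fits the lone KO library is assumed to vary as the controls do. Against the controls, KO replicate 1 had 35 of 48 tested Krtap genes higher and 0 lower, against 121 of 18132 genes higher (0.667%) in the whole table, with a median log2 fold change of 4.36. Of the 13 high sulfur genes tested outside subfamily 3, 9 were higher, as were 13 of 16 high glycine-tyrosine and 11 of 16 ultra-high sulfur genes. Here too a gene could pass the filter through KO replicate 1 alone, so these numbers and the median support nothing by themselves. The restriction used next, to genes with at least 10 counts in another library, was chosen after seeing the data. Of the 38 with at least 10 counts in a library other than KO replicate 1, 29 were higher, against 108 of 17942 genes (0.602%). In KO replicate 2, 0 of 39 tested Krtap genes passed in edgeR and 0 had an unadjusted p under 0.05, against 1 of 18041 genes (0.00554%) called in the whole table. The median log2 fold change in KO replicate 2 was 0.0038, with 21 genes above 0 and 18 below. Krtap3-2 had 0.90 (SE 0.19) in KO replicate 1 and 0.34 (SE 0.19) in KO replicate 2.

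The other genes of the hair shaft were listed by role and read in the same fits. The 15 hair shaft keratin genes in the table, which encode the filaments that the Krtap proteins embed, summed to 147.5 and 16.4 CPM in KO and 9.11, 11.4 and 25.5 CPM in controls. Of 14 tested, 0 passed between the groups in edgeR (4 at an unadjusted p under 0.05) and 3 were called higher by DESeq2. In KO replicate 1, 13 of 15 were at least 4-fold higher than in any other library, against 0.676% of all genes. Krt39 and Krt40 reached the count minimum in KO replicate 1 alone, so this count supports nothing by itself. Krt35, an early keratin of the shaft, had 1469 and 21 counts in KO and 21, 38 and 40 in controls. Krt84, a hair-type keratin also known from the human tongue, had 4.42 and 7.70 CPM in KO and 3.10, 5.76 and 10.7 CPM in controls, so KO replicate 1 was not high.

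Inner root sheath genes, which encode the sleeve that moulds the shaft, summed to 643 and 15.6 CPM in KO and 17.3, 11.7 and 20.3 CPM in controls. Of 8 tested 0 passed in edgeR (0 at an unadjusted p under 0.05) and 4 were called higher by DESeq2. In KO replicate 1, 8 of the 9 listed were at least 4-fold above every other library, against 0.676% of all genes. Krt72 reached the count minimum in KO replicate 1 alone, so this count supports nothing by itself. Krt71, a sheath keratin, had 191 and 2.82 CPM in KO and 2.68, 1.38 and 4.49 CPM in controls. Tchh, for trichohyalin, had 167 and 7.28 CPM in KO and 8.72, 7.24 and 9.04 CPM in controls. For Krt71 and Tchh alike, only KO replicate 1 was high.

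The 13 regulators of shaft differentiation lay closer together across the 5 libraries. They summed to 684 and 552 CPM in KO and 563, 574 and 675 CPM in controls. In edgeR 0 of 13 passed (2 at an unadjusted p under 0.05). DESeq2 called 1 higher, against 1088 of 17472 genes in all. Gata3, a factor of the inner root sheath and the list's most abundant gene, had 263 and 192 CPM in KO and 233, 240 and 243 CPM in controls. Foxq1, a forkhead factor altered in satin mice, had 115 and 98.03 CPM in KO and 76.7, 89.5 and 122 CPM in controls. The gene Hoxc13, which encodes a regulator of hair keratin genes, had 13.1 and 7.66 CPM in KO and 5.11, 6.55 and 7.22 CPM in controls. Shh, a signal of growing follicles, had 2.70 and 0.0700 CPM in KO and 0.0949, 0.183 and 0.364 CPM in controls. It was the 1 regulator of the 13 at least 4-fold higher in KO replicate 1, against 0.676% of all genes. Hoxc13 and Shh were chosen after their values were seen.

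Among 10 genes for cross-linking enzymes and surface proteins of the shaft, 0 of 9 tested passed in edgeR. At an unadjusted p under 0.05 there were 2 in edgeR, and DESeq2 called 1 higher, against 1088 of 17472 genes in all. In KO replicate 1, 4 of the 9 with at least 10 counts were at least 4-fold higher than in any other library, against 0.676% of all genes. Their sum was 240 and 145 CPM in KO and 158, 178 and 156 CPM in controls. Tgm3, an epidermal and hair transglutaminase, had 90.9 and 86.9 CPM in KO and 95.8, 121 and 95.01 CPM in controls. Selenbp1, the next most abundant of the list, had 40.4 and 31.8 CPM in KO and 29.5, 28.02 and 29.2 CPM in controls. Padi3, a deiminase that acts on trichohyalin, had 10.4 and 0.420 CPM in KO and 0.403, 0.143 and 0.182 CPM in controls, and S100a3, for a cuticle calcium-binding protein, had 51.9 and 8.80 CPM in KO and 8.11, 7.76 and 9.95 CPM in controls. Padi3 and S100a3 were also named after their values were seen.

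**Figure D5:**
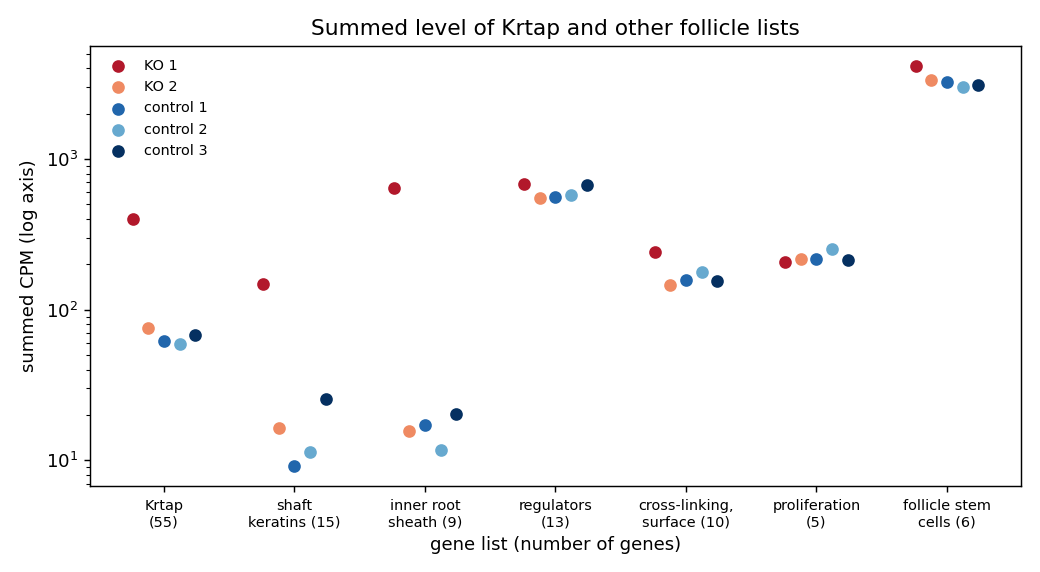
Summed CPM (log axis) of the Krtap genes and of other follicle gene lists in each library, 1 point per library, KO points left of control points. The KO 1 point stands far above the other 4 for Krtap genes, shaft keratins and the inner root sheath, and is the lowest of the 5 for the proliferation genes.

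Markers of other cell types were summed in the same way. Over 10 such lists the sum in KO replicate 1 was between 0.610 (cartilage) and 1.24 (follicle stem cells) times that of the highest other library. Proliferation markers had 208 and 218 CPM in KO and 218, 251 and 214 CPM in controls. Follicle stem cell markers had 4155 and 3353 CPM in KO and 3244, 3032 and 3108 CPM in controls, and markers of the outer root sheath and companion layer 876 and 824 CPM in KO and 612, 598 and 709 CPM in controls. Krt15 (3768 CPM) and Krt17 (780 CPM) made up most of these sums in KO replicate 1. Within the latter list the ratio of KO replicate 1 to the highest other library was 2.01 for Krt75, 1.06 for Krt17, 0.784 for Krt6a and 0.503 for Krt16. Krt75 was named after its values were seen. Epidermal markers had 50453 and 47911 CPM in KO and 37848, 33902 and 43429 CPM in controls. Of these 5 genes Lor had the largest log2 fold change (0.81), with 23492 and 17624 CPM in KO and 10371, 9650 and 15130.5 CPM in controls. For Krt5 both KO libraries lay above every control by a small margin, and for Krt14, Krt1 and Krt10 the groups overlapped. In edgeR, 2 of the marker genes tested over all these lists passed, against 3.76% of all genes tested. The 10 lists held between 2 (cartilage) and 6 (follicle stem cells) tested genes each. This count was not read as a result about the markers. Awat2, 1 of 4 sebaceous gland markers tested, was higher in KO (log2 fold change 0.65, edgeR adjusted p = 0.0320). So was Cfd, 1 of 3 adipocyte markers tested (0.71, edgeR adjusted p = 0.0351). Neither passed without KO replicate 1, nor without KO replicate 2 (edgeR adjusted p = 0.152 for Awat2 and 0.203 for Cfd), and Cfd did not pass with the length and GC offsets (edgeR adjusted p = 0.716). DESeq2 called 3 skeletal muscle markers, 2 of the outer root sheath and companion layer, 2 of adipocytes, 1 of the epidermis and 1 of the sebaceous gland higher in KO, and 1 of cartilage lower. Over the whole table it called 1088 genes higher and 720 lower of 17472. The part of these markers in the Krtap results was not tested.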

How the data were processed

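The authors deposited whole-number read counts per gene for 27179 Entrez identifiers, not normalised. Per the submitters' processing notes, FastQC, HISAT2 2.0.4 and DESeq2 1.16.1 were used, and GRCm38 (mm10) was the build. How reads were counted, by strand and where several genes match, was not given in the sources used here. Shared reads matter for this family: 15 members had over 10% of their 50-base words in another gene and 20 had none. Without a known strand setting, reads of overlapping genes cannot be told apart.

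Symbols came from RefSeq (25275 identifiers matched; the others stayed in library totals), and gene structures from GENCODE. Protein sequences were not used; residue shares came from translated coding sequences. Krtap29-1 was not analysed here, nor was Krt85. Gm10272 and 2310057N15Rik, which carry a Krtap name only as a synonym, were not counted as members. Counts were filtered with filterByExpr (minimum 10), scaled by TMM (factors 0.936 to 1.07) and tested with edgeR 4.0.16 in R 4.3.3 (quasi-likelihood F test, robust, Benjamini-Hochberg over all genes, threshold 0.05). The biological coefficient of variation was 0.154. The deviation of libraries within a group exceeded sampling noise (chi-square per degree of freedom 22.9 to 76.3), so none was a duplicate. Groups and replicate numbers came from the sample titles.

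Members and lists were chosen with earlier results of these data known. Genes were named if called, if highest in mean CPM in their subfamily, if among the 5 smallest p or 5 highest counts, and in the 4 other lists of hair shaft genes and their regulators if called or among the 2 highest in mean CPM. Others are named as extremes of a range or as neighbours and were chosen after their values were seen. Alternatives were other scalings, count filters, robust estimation off, DESeq2 1.42.0, limma voom 3.58.1 with quality weights, length and GC offsets (mgcv 1.9.3), the replicate number as a block, other class limits, and leaving out each library.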

Additional observations from a re-analysis of the deposited data

How the results depend on the processing

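Of 657 genes called between the groups in all, and of the 1 called Krtap gene, the number depended on the setting. It was 1242 genes and 1 Krtap gene with library size scaling, which shifted the median of all genes to -0.16 and gave 268 genes higher and 974 lower in place of 474 and 183. It was 1036 and 3 with no count filter, 1808 and 7 with DESeq2, 4662 and 9 with limma voom, 657 and 5 with robust estimation off, and 612 and 0 with length and GC offsets (edgeR, 5 Krtap genes at an unadjusted p under 0.05). Leaving out 1 replicate gave 0 to 3277 genes and 0 to 35 Krtap genes. Without KO replicate 1 it was 1 and 0, without KO replicate 2 it was 128 and 35, and without control replicate 1 it was 0 and 0. Without control replicate 2 it was 1334 and 1, and without control replicate 3 it was 3277 and 3. All calls of Krtap genes were higher in KO. The cause was not tested.

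The median log2 fold change of the tested Krtap genes, 3.36, was 2.41 with limma voom and 2.89 with length and GC offsets, and ranged from 0.0038 to 4.36 with 1 replicate left out. The log2 ratio of mean summed CPM, 1.92, was 1.77 with library size scaling, 2.94 without Krtap3-2 and 3.10 without the 3 genes of subfamily 3, the last chosen after seeing the data; it ranged from 0.25 to 2.67 with 1 replicate left out, lowest without KO replicate 1. Without KO replicate 1 the sign of 8 named genes turned. Their log2 fold changes with 1 replicate left out ranged from -0.24 to 6.28 for Krtap11-1, -2.08 to 4.13 for Krtap14, -0.11 to 2.73 for Krtap19-5, -0.60 to 3.67 for Krtap19-9b, -0.033 to 4.98 for Krtap2-4, -6.37 to 3.55 for Krtap26-1, -1.54 to 5.07 for Krtap28-13 and -0.45 to 4.46 for Krtap8-1. The value of -6.37 is a fitted value for 0 counts in KO replicate 2 and is no bound.

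The labels do not pair the samples, and same-numbered libraries had correlated deviations of 0.016 (replicate 1) and 0.064 (replicate 2), against -0.064 to 0.047 for other pairs. Deviations were taken from the group mean, so those of the 2 KO libraries mirror each other. The pairs are thus not independent, and these values cannot show whether the samples were paired. With the replicate number as a block, which leaves control replicate 3 without a partner, 2037 genes and 15 Krtap genes were called. High glycine-tyrosine genes numbered 15 to 19 and ultra-high sulfur genes 16 to 20 under the other class limits, one of which, reading cysteine first, was chosen after seeing the data.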

Other observations

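Between the outermost Krtap genes of a chromosome the table held 27 other genes with at least 10 counts in a library, all of them named as predicted genes. Of these 22 were at least 4-fold higher in KO replicate 1 than in any other library, against 124 of 18355 genes (0.676%). The median ratio over the 27 was 6.29. A gene could reach 10 counts through KO replicate 1 alone, so this count and median support nothing by themselves. Of the 13 with at least 10 counts in another library 12 were at least 4-fold higher, against 91 of 18240 genes (0.499%). That restriction was chosen after seeing the data. Gm10229 on chromosome 16 had 857 and 35 counts in KO and 94, 50 and 34 in controls. Gm11563 on chromosome 11 had 417 and 6 counts in KO and 37, 16 and 42 in controls. Of the 2 genes with a Krtap name only as a synonym, Gm10272 lies outside the span on chromosome 10 and had 45 and 2 counts in KO and 6, 9 and 11 in controls, and 2310057N15Rik on chromosome 16 had 0 counts in every library. Whether the 27 genes encode further proteins of the family was not tested, and reads shared with annotated Krtap genes were not separated.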
